A study of Mus musculus with 30 samples.

Results

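Sperm swim with a flagellum built on an axoneme, a ring of doublet microtubules around a central pair, and the genes for this structure were followed in mouse sperm RNA after treatment with tesaglitazar. Genes were taken by name from a table of polyA-selected sperm RNA, where 68 of 16242 features carried a Cfap, Rsph, Spag, Tekt, Ift, Bbs or Drc name followed by a number (for Rsph, by anything). These were 23 Cfap, 14 Ift, 11 Spag, 6 Rsph, 6 Bbs, 5 Tekt and 3 Drc genes, and 22 of the same names were among the 3082 features of a table of total sperm RNA. Adult C57Bl/6J males, 3 months old, had been injected intraperitoneally over 4 weeks with tesaglitazar (TESA), an agonist of the nuclear receptors PPARα and PPARγ, at 10 μg/kg, or with vehicle made of DMSO in saline (CTRL). Sperm that had swum out of the epididymis, treated with a buffer that lyses somatic cells, were taken 24 h after the last injection (4 TESA and 4 CTRL, polyA-selected RNA) or 46 days after it (7 TESA and 7 CTRL, total RNA depleted of ribosomal RNA). The question was whether RNA of these genes differed between TESA and CTRL sperm shortly after the drug, and in sperm formed after it was withdrawn. The labels give each library as a separate sample of its group and say nothing further about its source, so the tests measure the spread between these samples. Time and library type changed together and cannot be told apart.

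Total counts per library were 15337589 to 27709990 at 24 h and 4538102 to 13513816 at 46 days. The flagellum genes held 0.052% to 0.0943% of them at 24 h, that is 7968 to 26134 counts per library. At 46 days their counts ran from 401 in KG8-02 and 963 in KG8-12, both TESA, to 20519 in KG8-11 (TESA) and 43695 in KG8-14 (CTRL), so the precision of a value differed widely between those libraries. Outside the 5 features with the most counts, libraries held 6214423 to 16802787 counts at 24 h. At 46 days they held 158820 (KG8-02) to 7119414 (KG8-14), so depth differed far more than the totals show. Levels are given as CPM, counts relative to the library total after adjustment by TMM, which centres most features between libraries. The TMM factors ranged from 0.771 to 1.57 at 24 h and from 0.0981 to 8.15 at 46 days. CPM is not corrected for transcript length, so levels are compared between groups and libraries and not between genes. Exceptions are the medians for genes listed and not listed at 46 days, the shares and ratios of counts, and the naming by highest level. Statements of which gene gave most of a sum are a further exception. None of these is corrected for length.

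As background, radial spokes (Rsph) and the central apparatus (Spag6, Spag16, Spag17, Cfap46, Cfap54) regulate the dynein arms, the nexin-dynein regulatory complex (Drc) links neighbouring doublets, and tektins (Tekt) run inside the doublet wall. Intraflagellar transport complexes A and B (Ift) and the BBSome (Bbs) carry cargo along growing cilia and act in spermatids while the tail is assembled. Transcription ceases as the sperm head condenses, so RNA of mature sperm is what spermatids left behind or what was taken up later. The Spag names are a mixed group that also holds proteins outside the axoneme.

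The libraries carried sperm RNA. All 10 sperm and late spermatid markers, such as Prm2 and Odf1, were listed in both tables, with a summed level of 3158 to 10770 CPM at 24 h and 323 to 765 CPM at 46 days. At 24 h all 10 leukocyte markers were also listed. Their sum was 2100, 1251, 2201 and 2598 CPM in TESA and 1734, 1206, 2070 and 1549 CPM in CTRL, most of it from Cd52, which epididymal epithelium also makes. Without Cd52 it was 145 to 216 CPM in TESA and 142 to 317 CPM in CTRL, and 6 of the 10 had a log2 fold change below 0. Epididymal epithelium was represented by 7 of 13 markers, mostly Spink8 and Crisp1, with sums of 1333, 1126, 857 and 1482 CPM in TESA and 849, 959, 1677 and 2553 CPM in CTRL. These sums overlapped between the groups. Crisp1 had a log2 fold change of -0.75 ± 0.52, and the other 6 epididymal markers were above 0. Of 10 markers of multiciliated epithelium, whose cilia use many of the same genes, 5 were listed at 24 h, among which Deup1 gave most of the 28.1 to 64.1 CPM, and Mcidas, Gmnc, Tmem212, Sec14l3 and Cdhr3 were not listed. The 4 globin genes summed to 53.5 to 270 CPM, and Tex101 was the only listed one of 6 meiotic markers, at 0 to 3.4 CPM. At 46 days no leukocyte, epididymal, globin or meiotic marker was listed, and Deup1 was the only multiciliated one. In such bulk samples, fewer cells of a type and less RNA per cell cannot be told apart, and the part of other cell types in the values below was not tested.

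At 24 h, RNA of the flagellum genes did not pass the test in either direction. Of 68 genes, 64 had more than 20 counts in enough libraries to be tested, among 13752 features tested. By edgeR's quasi-likelihood test 0 of the 64 passed an adjusted p of 0.05, as did 0% of all features tested, and every adjusted p of these genes rounded to 1.00. At an unadjusted p of 0.05 the count was also 0, beside 2.71% of all features and 1.75% that were lower in TESA. The same unadjusted count was 0 with edgeR's exact test, 2 with DESeq2 and 4 with limma voom. Without 1 library it was 1 (ai_1, ai_4 or ai_5 left out), 2 (ai_3) or 3 (ai_6). Without ai_6, of 2832 features also listed at 46 days, 157 were lower and 8 higher in TESA at that p. Of 10406 others, 58 were lower and 184 higher. Shares of all features in the other fits are not given here, so those counts do not show whether these genes differ from the rest. TESA and CTRL libraries did not overlap in 2 genes, Ift22 and Spag7, a share of 3.12% beside 3.26% of all features.

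The log2 fold changes of the 64 genes ran from -1.35 (Ift81) to 1.27 (Rsph6a) with a median of -0.08, beside a median of -0.02 over all features tested. TESA was the higher group in 27 and the lower in 37. Standard errors were 0.19 to 1.66 with a median of 0.40, and the 95% confidence interval stayed within a log2 change of 1 in either direction for 16 genes. For the other genes a change of that size could not be told from none at this depth and spread. Summed over all 68 genes, the level was 663 ± 58.3 CPM in TESA and 751 ± 100 CPM in CTRL (SD, n = 4 each). Scaled by library totals alone, the median moved to 0.11 and that of all features to 0.19, so the sign of a small change rests on the scaling.

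**Figure D1:**
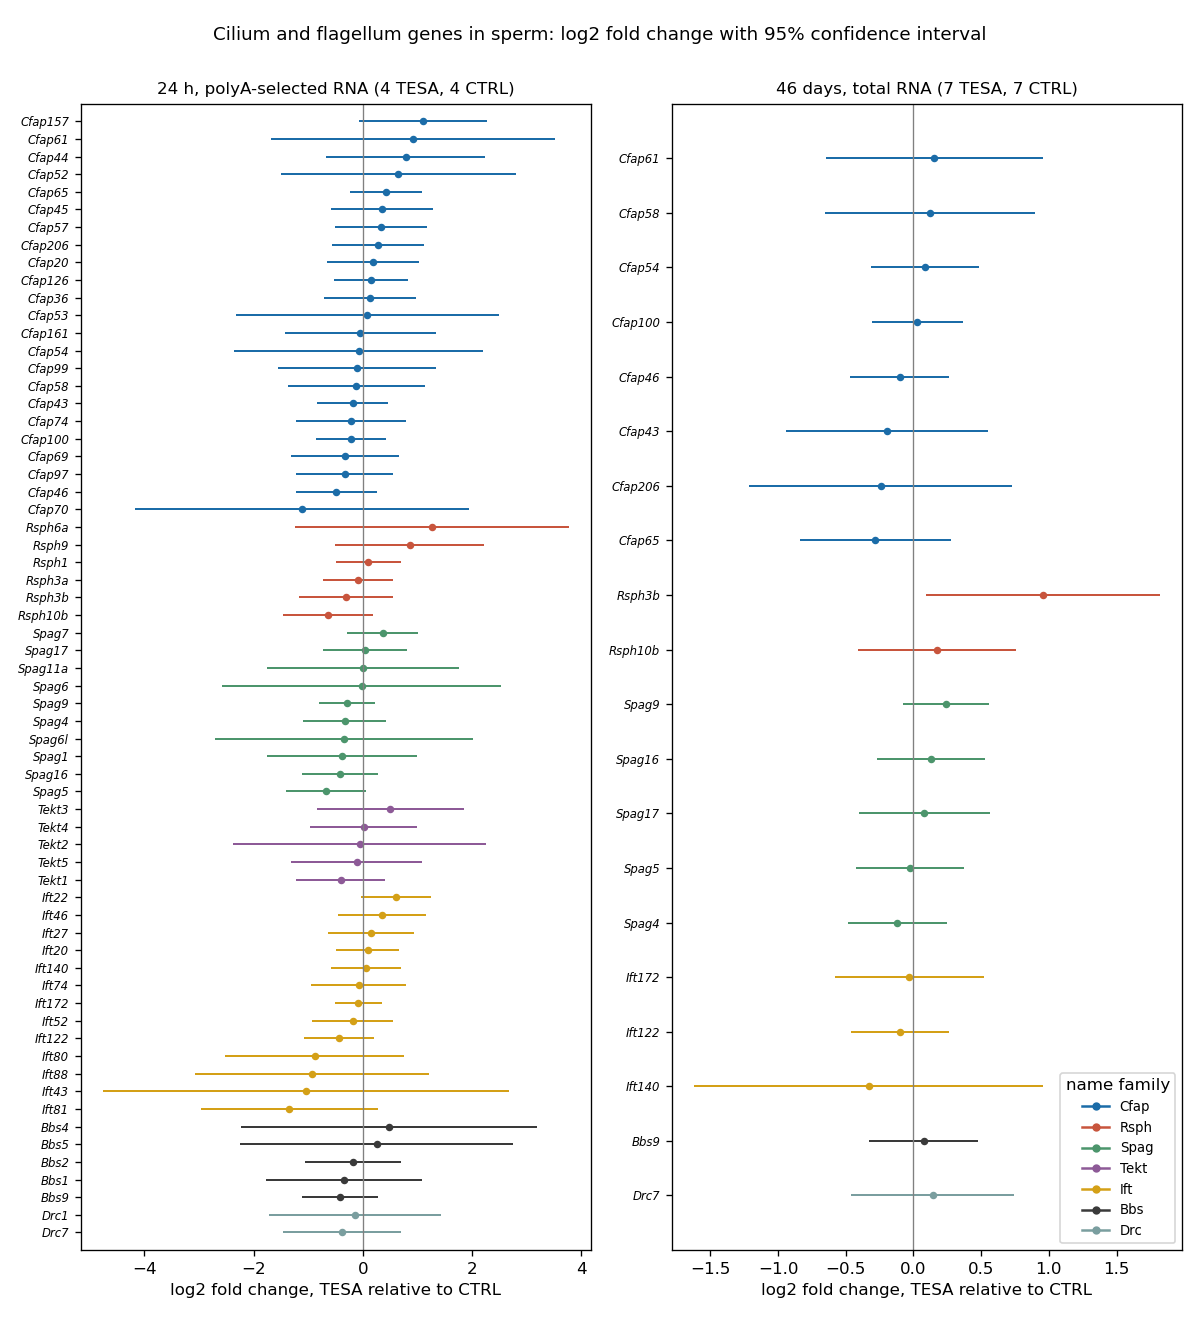
Log2 fold change of TESA relative to CTRL (horizontal axis) for each flagellum gene tested at 24 h (64 genes, 4 libraries a group) and at 46 days (20 genes, 7 libraries a group), coloured by name family; points are edgeR estimates and lines their 95% confidence intervals. Every interval at 24 h reaches across 0, and at 46 days that of Rsph3b alone does not.

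Among the 14 intraflagellar transport genes, 13 were tested, of which 5 had a log2 fold change above 0 and 8 below. Ift22, a small GTPase-like subunit of complex B, lies at chr5:136908150-136914509 (GRCm38.p6) and had the smallest p of all 64. Its levels were 13.4, 13.2, 12.9 and 11.2 CPM in TESA and 9.02, 5.34, 10.3 and 8.42 CPM in CTRL. Each TESA library was above each CTRL library, and the log2 fold change was 0.61 ± 0.28 (SE, derived from edgeR's F statistic, adjusted p = 1.00). Without ai_4 it was 0.47. Without ai_6 it was 0.74, under an unadjusted p of 0.05. Ift81, which binds tubulin together with Ift74 in the core of complex B, was at 0.432, 5.41, 2.02 and 0.688 CPM in TESA and at 5.85, 5.5, 5.48 and 4.94 CPM in CTRL. The CTRL libraries were close together and the TESA library ai_3 lay among them, whereas the other 3 TESA libraries were lower. The log2 fold change was -1.35 ± 0.72, or -0.997 without ai_1 and -1.04 without ai_7. Without ai_3 it was -2.37 (edgeR, adjusted p = 0.978). Voom with quality weights gave -2.36 for this gene (limma, adjusted p = 0.634), and both of these were under an unadjusted p of 0.05, where the edgeR quasi-likelihood fit on all 8 libraries was not.

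Ift122, a core subunit of complex A, was at 91.4, 69, 61.8 and 52.4 CPM in TESA and at 140, 82.4, 78.8 and 70.8 CPM in CTRL. The groups overlapped, with CTRL library ai_2 far above the rest, and the log2 fold change was -0.44 ± 0.28, and from -0.59 (without ai_1) to -0.16 (ai_2) with 1 library left out. Ift172, of the outer part of complex B, had the smallest standard error of the set. It was at 24.2, 26.2, 21.9 and 23.2 CPM in TESA and 28, 23, 25.7 and 24.4 CPM in CTRL, a log2 fold change of -0.08 with a 95% confidence interval of -0.50 to 0.33. Ift20, which also sits at the Golgi, was at 28.9 ± 5.92 CPM in TESA and 27.1 ± 6.97 CPM in CTRL (SD, n = 4 each). Ift43 of complex A, named after its values were seen, was at 0 in 3 TESA libraries and at 7.61 CPM in ai_3. CTRL libraries held 4.26, 2.75, 4.27 and 4.41 CPM. With that spread its log2 fold change of -1.04 had a standard error of 1.66.

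The 6 BBSome and chaperonin genes gave 47.9 ± 6.84 CPM together in TESA and 60.3 ± 9.71 CPM in CTRL (SD, n = 4 each), most of it from Bbs9. Bbs9, a core subunit of the BBSome, was at 46.6, 26.4, 41.6 and 19 CPM in TESA and at 50.8, 42.6, 33.7 and 51.8 CPM in CTRL. TESA libraries ai_3 and ai_7 were below every CTRL library and the other 2 were among them, with a log2 fold change of -0.42 ± 0.30, or -0.61 without ai_1 and -0.22 without ai_7. Bbs2 had -0.18, Bbs1 -0.34, Bbs4 0.48 and Bbs5 0.25, and Bbs12, a chaperonin for BBSome assembly, was below the count minimum.

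All 23 Cfap genes were tested, 12 with a log2 fold change above 0 and 11 below, at a summed level of 208 ± 26.2 CPM in TESA and 226 ± 36.3 CPM in CTRL. Cfap157, needed for a regular axoneme in the sperm tail, was at 4.56, 2.73, 5.42 and 3.46 CPM in TESA and 1.67, 1.05, 3.25 and 1.52 CPM in CTRL. Of the TESA libraries 3 were above all CTRL libraries and ai_3 was below ai_6. The log2 fold change was 1.10 ± 0.52, on 13 to 151 counts per library. Without ai_4 it was 0.92. Without ai_6 it was 1.51, under an unadjusted p of 0.05. Cfap46, a central apparatus protein at chr7:139600914-139684787, was at 105, 73.5, 54.2 and 45.4 CPM in TESA and 150, 87.2, 79.5 and 72.7 CPM in CTRL. Its libraries were ordered as those of Ift122 in both groups, again with ai_2 highest, and its log2 fold change was -0.48 ± 0.33, or -0.74 without ai_1 and -0.19 without ai_2. The levels of both genes went down with library number within each group. With a term for that number, chosen after seeing the data, the log2 fold changes were -0.69 for Cfap46 and -0.56 for Ift122. In that fit 3 of 64 genes (these and Spag5) were under an unadjusted p of 0.05 by edgeR, beside 3.56% of all features, and 0 passed an adjusted p of 0.05.

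Cfap65, whose loss is known to malform the sperm tail, was at 13.9, 14.7, 14 and 13.8 CPM in TESA and 10.8, 6.39, 9.61 and 15.1 CPM in CTRL. TESA libraries were nearly equal, and CTRL library ai_8 exceeded them all (log2 fold change 0.43 ± 0.29, or 0.28 without ai_4 and 0.66 without ai_8). Cfap44 and Cfap43, partners in a complex that tethers inner dynein arms, had log2 fold changes of 0.78 ± 0.65 and -0.19 ± 0.28. For the inner junction and doublet-lumen proteins Cfap20, Cfap45, Cfap52 and Cfap53 they were 0.18, 0.35, 0.65 and 0.08, each with an interval that held 0.

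The radial spoke genes were even, with 3 above and 3 below 0 in log2 fold change. Rsph10b was at 10.5, 5.1, 9.86 and 7.43 CPM in TESA and 19.8, 7.68, 11.5 and 12.3 CPM in CTRL (log2 fold change -0.64 ± 0.36), and its groups overlapped. Without ai_2 the change was -0.34, and without ai_4 it was -0.80, under an unadjusted p of 0.05. Rsph9, of the spoke head, was at 5.67, 5.84, 1.18 and 10.5 CPM in TESA and 1.67, 3.15, 3.83 and 4.11 CPM in CTRL. TESA thus held both the lowest and the highest library for Rsph9, and its log2 fold change was 0.86 ± 0.60. It was 0.40 without ai_7, and without ai_5, the lowest, 1.21 and under an unadjusted p of 0.05 (adjusted p = 1.00). Rsph1, another head protein, was at 22.5, 26, 25 and 25.8 CPM in TESA and 25, 12.9, 27.3 and 27.4 CPM in CTRL, level apart from ai_4. The near-identical stalk genes Rsph3a and Rsph3b can exchange reads in the counting, and their count ratio varied from 0.567 to 3.04 over the 8 libraries. Their log2 fold changes were -0.09 ± 0.28 and -0.30 ± 0.38, the second from -0.65 (without ai_3) to -0.063 (ai_5) with 1 library left out.

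**Figure D2:**
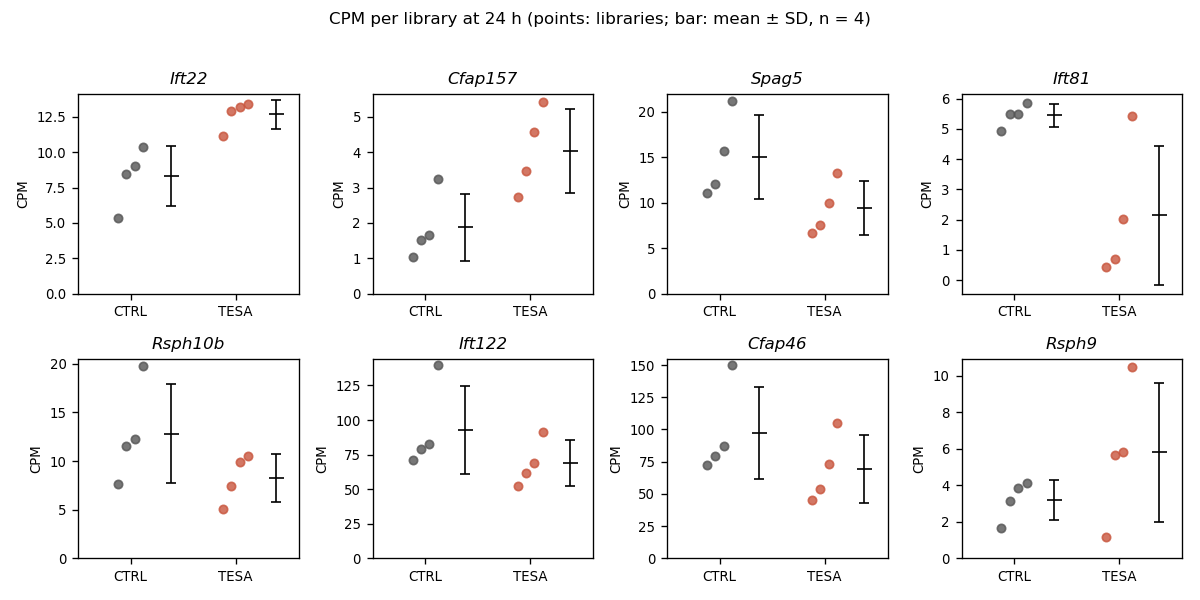
CPM (vertical axis, linear) of 8 flagellum genes in each 24 h library, CTRL in grey and TESA in red; bars are mean ± SD of 4 libraries. Ift22 is the only gene shown whose groups do not overlap, Ift81 has TESA libraries from 0.432 to 5.41 CPM, and ai_2 is the highest CTRL point for Ift122 and Cfap46.

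Of 10 Spag genes tested, 3 had a log2 fold change above 0 and 7 below. Spag5, known as astrin and a protein of the mitotic spindle, was at 13.3, 9.99, 6.65 and 7.57 CPM in TESA and 21.2, 15.7, 11.1 and 12.1 CPM in CTRL. TESA library ai_1 lay within the CTRL range and the other 3 were below it (log2 fold change -0.68 ± 0.32). It was -0.88 without ai_1 and -0.80 without ai_6, both under an unadjusted p of 0.05, and -0.45 without ai_2. Spag16, of the central apparatus, had -0.42 ± 0.31, and Spag9, a scaffold for kinases that is also called JIP4, had -0.29 ± 0.22. Spag4, a SUN protein of the spermatid nuclear envelope, was at 43.6, 17.1, 33.8 and 26 CPM in TESA and 57.2, 29.7, 28.8 and 36.3 CPM in CTRL (-0.34 ± 0.33). The groups overlapped for all 3. With 1 library left out Spag16 ran from -0.54 (ai_3) to -0.23 (ai_7), Spag9 from -0.40 (ai_1) to -0.15 (ai_3) and Spag4 from -0.55 (ai_1) to -0.054 (ai_2).

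Spag7, named here after its values were seen, was at 7.96, 8.39, 9.36 and 8.86 CPM in TESA and 4.93, 7.6, 7.28 and 7.06 CPM in CTRL. The groups did not overlap, with a log2 fold change of 0.36 ± 0.28. Spag6 and Spag6l, close copies that encode a central apparatus protein, were at 0 to 4.5 and 0 to 4.54 CPM. Their ratio ran from 0.315 to 5.27 in the 7 libraries with counts of both, so neither fold change (-0.02 ± 1.14 and -0.35 ± 1.05) says much. Spag11a, an epididymal defensin, was at 0.678 to 5.67 CPM in TESA and 1.13 to 3.93 CPM in CTRL.

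Tektins gave 27.3 ± 5.74 CPM in TESA and 29.6 ± 11.6 CPM in CTRL together. Tekt1 was at 6.6, 5.58, 6.51 and 11.5 CPM in TESA and 14.8, 6.71, 9.8 and 8.85 CPM in CTRL, overlapping (log2 fold change -0.41 ± 0.36, or -0.14 without ai_2 and -0.68 without ai_7). With library totals the change was -0.060. Tekt2, named after its values were seen, was low in a library of each group. It was at 0.161 CPM in ai_7 and 0.647 CPM in ai_4 beside 7.59 to 16.2 CPM in the other 6. The nexin-dynein regulatory genes Drc1 and Drc7 had log2 fold changes of -0.14 ± 0.70 and -0.38 ± 0.48, the second from -0.77 (without ai_3) to -0.10 (ai_1) with 1 library left out. Among the 64 genes 12 had at least 1 library at 0. The 4 genes below the count minimum were Bbs12, Drc3, Ift57 and Spag8, at no more than 2.6 CPM in any library.

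At 46 days the flagellum genes again gave no adjusted call. Of 22 listed genes 20 were tested among 2866 features, Tekt1 and Tekt5 being too low. By edgeR's quasi-likelihood test 0 of 20 passed an adjusted p of 0.05, as did 0% of all features, and 1 of 20, Rsph3b, was under an unadjusted p of 0.05, and higher in TESA, beside 5.3% of all features (4.26% higher and 1.05% lower in TESA). That unadjusted count was 1 with the exact test and with DESeq2 and 0 with voom. No gene had groups that did not overlap (0.0349% of all features did). Log2 fold changes ran from -0.33 (Ift140) to 0.95 (Rsph3b), median 0.05 beside -0.03 for all features, with 11 genes above 0 and 9 below. Standard errors were 0.15 to 0.60, and 17 genes had a 95% confidence interval within a log2 change of 1 in either direction. Scaled by library totals alone, all features had a median of -1.09 and these genes -1.03.

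Rsph3b, the radial spoke stalk gene at chr17:6904716-6948356, ran from 5.24 to 26.8 CPM in TESA (median 7.42) and from 3.08 to 9.84 CPM in CTRL (median 5.78). The high TESA libraries were KG8-02 and KG8-12, at 26.8 and 22.1 CPM on 23 and 56 counts, and the other 5 lay within the CTRL range. Its log2 fold change was 0.95 ± 0.40 (edgeR, adjusted p = 0.857). Without KG8-02 it was 0.68, without KG8-12 0.61 and without both 0.24, the last an alternative chosen after seeing the data. In each of these 3 fits its unadjusted p was above 0.05. The same held without CTRL library KG8-10 (0.85), KG8-13 (0.90) or KG8-14 (0.87), and with libraries numbered 1 to 10 the log2 fold change was 0.55. With library totals it was -0.46. Rsph3a was not listed at 46 days, so the sharing of reads between the copies could not be seen.

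Spag9 was at 29.6 to 50.6 CPM in TESA (median 33) and 25.3 to 32.6 CPM in CTRL (median 30.8). The highest TESA libraries were again KG8-12 and KG8-02, 4 of 7 TESA libraries were above all CTRL libraries, and the log2 fold change was 0.24 ± 0.15, or 0.098 without KG8-12. Cfap46 was at 73.9 to 166 CPM in TESA (median 148) and 123 to 165 CPM in CTRL (median 147), with KG8-12 lowest. Ift122 was at 77.1 to 156 CPM in TESA (median 130) and 122 to 156 CPM in CTRL (median 134), again with KG8-12 lowest. For both genes the log2 fold change was -0.10 ± 0.17. Without KG8-12 it was -0.032 for Cfap46 and -0.045 for Ift122, and without KG8-03 -0.17 for each. KG8-12 also had the lowest summed level of the 22 genes, 381 CPM, beside 507 ± 69.9 in TESA and 517 ± 33.4 in CTRL (SD, n = 7 each). In the same library the sperm markers summed to 370 CPM, beside 495 to 765 in the other TESA libraries and 323 to 726 in CTRL, and the other genes of cilia described below to 166, beside 270 to 369 in all other libraries.

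Bbs9 was at 46.1 to 80.6 CPM in TESA (median 58.2) and 33.1 to 72.6 CPM in CTRL (median 59.9), a log2 fold change of 0.08 ± 0.19. Spag4 was at 24.5 to 54.6 CPM in TESA (median 37.6) and 36.1 to 52.3 CPM in CTRL (median 45.1), a log2 fold change of -0.12 ± 0.17, or -0.22 without KG8-03 and -0.064 without KG8-12. The groups overlapped for both. Among the remaining axonemal genes the log2 fold changes were -0.28 ± 0.26 for Cfap65, -0.24 ± 0.45 for Cfap206, -0.19 ± 0.35 for Cfap43, 0.03 ± 0.15 for Cfap100, 0.09 ± 0.18 for Cfap54, 0.12 ± 0.36 for Cfap58 and 0.15 ± 0.37 for Cfap61. For central apparatus genes Spag16 and Spag17 they were 0.13 ± 0.19 and 0.08 ± 0.23, for Spag5 -0.03 ± 0.18, for Rsph10b 0.18 ± 0.27 and for Drc7 0.14 ± 0.28. The transport genes Ift172 and Ift140 had -0.03 ± 0.26 and -0.33 ± 0.60, and Ift140 was at 0 in 2 libraries. With 1 library left out Rsph10b ran from 0.027 (KG8-03) to 0.25 (KG8-08), Drc7 from 0.0030 (KG8-03) to 0.26 (KG8-12) and Spag16 from 0.033 (KG8-13) to 0.21 (KG8-14). Cfap65 ran from -0.41 (KG8-06) to -0.16 (KG8-10) and Cfap43 from -0.35 (KG8-12) to -0.057 (KG8-09). Cfap206 ran from -0.53 (without KG8-11) to -0.074 (KG8-05), and Ift140 from -0.68 (KG8-12) to -0.12 (KG8-11). Bbs9, Cfap54, Cfap58, Cfap61, Cfap100, Spag5, Spag17 and Ift172 took either sign.

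**Figure D3:**
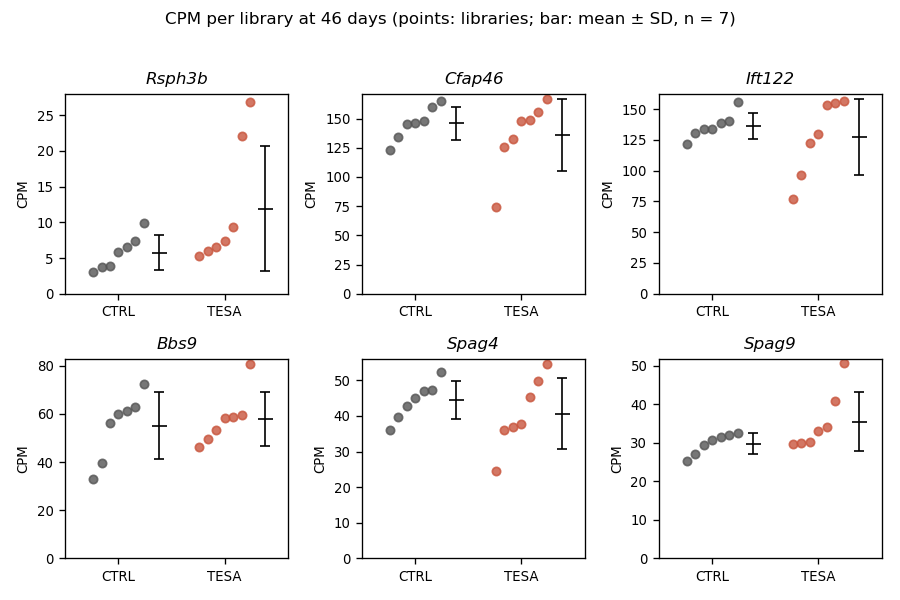
CPM (vertical axis, linear) of 6 flagellum genes in each 46-day library, CTRL in grey and TESA in red; bars are mean ± SD of 7 libraries. In Rsph3b the points at 22.1 and 26.8 CPM stand above the other TESA libraries, and the groups overlap in every gene shown.

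The effect at 46 days was also set against that at 24 h in a single edgeR model of all 22 libraries, over the 2680 features with enough counts at both times. Of 20 flagellum genes 0 differed at an adjusted p of 0.05 (0% of all features) and 0 at an unadjusted p of 0.05, where 8.17% of all features did. Across the alternatives the unadjusted count was at most 2, given without the share of all features in those fits. The smallest p belonged to Spag9, whose log2 fold change at 46 days minus that at 24 h was 0.53 ± 0.26 (edgeR, adjusted p = 0.604), and to Rsph3b, with 1.25 ± 0.61 (adjusted p = 0.604).

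The genes listed at 46 days made up 8 of 23 Cfap, 5 of 11 Spag, 3 of 14 Ift, 2 of 6 Rsph, 2 of 5 Tekt, 1 of 6 Bbs and 1 of 3 Drc genes, in all 32.4% of the 68, beside 18.2% of all features of the 24 h table. Their genes spanned a median of 73.3 kb of the genome (n = 21 with a RefSeq entry), and those not listed 31.5 kb (n = 46). Over all RefSeq-named features the medians were 37.9 and 21.2 kb, so a longer span went with listing there too. The level differed as well, with a median in CTRL at 24 h of 14.1 CPM for the listed flagellum genes and 3.95 CPM for the others. These levels are not corrected for length, and what decided listing was not tested.

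Counts among the 22 shared genes were spread differently in the 2 library types. Cfap46, Ift122, Bbs9, Spag4 and Spag9 together held 52.2% to 67.9% of these counts at 24 h (median 60%) and 72.4% to 82.9% at 46 days (median 79.1%), with no overlap. Cfap46 took a median of 18.8% at 24 h and 28% at 46 days, and Ift122 18.1% and 25.9%. Bbs9 took 8.78% and 11.4%, Spag4 8% at both times, and Spag9 less at 46 days (7.91% and 5.91%). Ift172 also took less, with 4.37% to 7.1% at 24 h and 0.249% to 1.25% at 46 days. Such shares depend on transcript length and on the library type, and no test was run on them since treatment does not enter.

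Among the few ratios of counts computed, that of Cfap46 to Ift122, which lie on chromosomes 7 and 6, varied least. The ratio of Cfap46 to Ift122 was 0.867 to 1.15 in the 8 libraries at 24 h and 0.945 to 1.3 in the 14 at 46 days, with a coefficient of variation of 9.63% and 9.57%. For Cfap46 to Bbs9 the coefficients were 26.9% and 32.7%, and for Cfap46 to Ift172 the median ratio was 3.04 at 24 h and 36.7 at 46 days. These ratios were computed after their values were seen, and within a library they do not depend on the scaling. Ratios over all pairs of genes were not computed, so a steady ratio is not shown to be particular to this pair. Hydin, described below, had its 24 h libraries in the same order as Cfap46 within each group, and was also lowest in KG8-12.

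**Figure D4:**
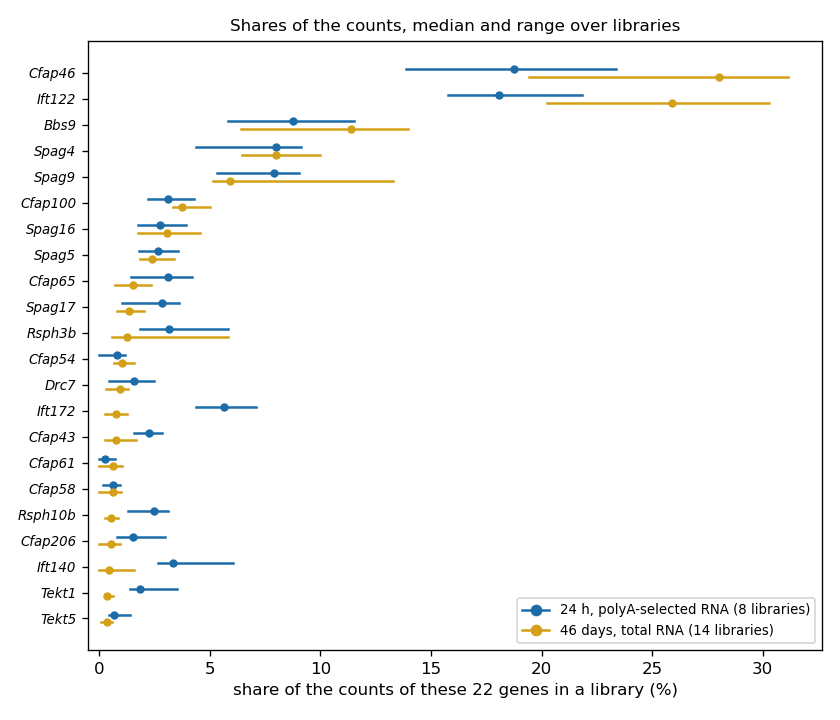
Share (horizontal axis, in percent) of the summed counts of the 22 genes listed in both tables, for each gene, as median (point) and range (line) over 8 libraries at 24 h (blue) and 14 at 46 days (yellow). Cfap46 and Ift122 have the highest medians in both, and the ranges of Ift172 do not overlap.

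Listing at 46 days also went with the sign of the fold change at 24 h, a split made after seeing the data. Of the 22 genes listed, 17 had a log2 fold change below 0 at 24 h (median -0.26), and of the 42 tested genes not listed, 20 did (median 0.01). Over all features the split was alike, with 2065 of 2862 listed features below 0 (72.2%, median -0.23) and 5118 of 10890 others (47%, median 0.04), so it is not particular to flagellum genes. Leaving out 1 library kept 16 to 19 of the 22 below 0. With library totals 11 of 22 and 11 of 42 were below 0, at medians of -0.02 and 0.25. Cfap46, Ift122, Bbs9, Spag4 and Spag9 are all among the 17. Their 24 h log2 fold changes stayed below 0 in each of 17 alternatives, reaching -0.054 for Spag4 and -0.075 for Spag9. Those fits reuse the same libraries, and the share of all listed features that kept their sign was not computed, so this adds no support.

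Other genes of cilia, from a list of 74 axonemal, transport and regulatory genes outside the name families, gave a like picture. At 24 h 59 were tested, 27 with a log2 fold change above 0 and 32 below, median -0.02, and 0 passed an adjusted p of 0.05. Hydin and Ulk4 were the 2 of 59 under an unadjusted p of 0.05, beside 2.71% of all features, and both were lower in TESA, as were 1.75% of all features. Hydin, a giant protein of the central apparatus, was at 104, 67.3, 66.8 and 59.2 CPM in TESA and 149, 127, 98.1 and 93.4 CPM in CTRL. TESA library ai_1 lay within the CTRL range and the others were below it, with a log2 fold change of -0.66 ± 0.25 (edgeR, adjusted p = 1.00). Ulk4, a pseudokinase of motile cilia, had -0.76 ± 0.30. At 46 days 17 were tested, 8 above and 9 below 0, 0 under an unadjusted p of 0.05 (5.3% of all features), and Hydin and Ulk4 had log2 fold changes of -0.08 ± 0.17 and -0.34 ± 0.38. The RFX factors, which bind X-box motifs at ciliary genes, had 24 h log2 fold changes of -0.30 ± 0.51 (Rfx1), -0.27 ± 0.29 (Rfx2), -0.87 ± 0.83 (Rfx3) and 0.92 ± 1.25 (Rfx4), and the ciliogenesis factor Foxj1 0.06 ± 0.74. At 46 days Rfx1 had -0.20, Rfx2 0.19 and Rfx3 0.04.

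Letters of the X-box were searched for in promoters of flagellum genes. RefSeq promoter windows (GRCm38.p6, from 250 bases before to 50 after a start, 300 in all; a gene can have several starts, which need not be the end of its span) were matched for 56 of 68 genes and searched on both strands for GTTGCCA, 7 letters of that motif. The letters occurred for 11 of 56 genes (19.6%) and 12 of 63 windows (19%), beside 1358 of 27025 genes (5.02%) and 1439 of 32851 windows (4.38%) in the RefSeq table, and 4.98% of the other genes of the 24 h table. By family these were 5 of 18 Cfap, 2 of 11 Ift and 1 each of 9 Spag, 5 Tekt, 6 Bbs and 3 Drc genes, and 0 of 4 Rsph genes. They were 2 of 18 genes listed at 46 days and 9 of 38 not listed. A match describes the letters only. Examples from 5 families are printed to show the letters (capitals) in their surroundings, read on the strand that carries them, at chr11:72361876-72361905 (Tekt1, minus strand), chr19:47937645-47937674 (Cfap58, plus), chr16:44394764-44394793 (Cfap44, minus), chr14:57424076-57424105 (Ift88, minus), chr19:4906605-4906634 (Bbs1, minus) and chr5:30281366-30281395 (Drc1, minus).
Tekt1: tccgtccgGTTGCCAtagagaccgcagttt
Cfap58: gcgtggcgGTTGCCAggcgaccgaagacgc
Cfap44: ttactgcgGTTGCCAtagcaacgtccctcc
Ift88: gcccagccGTTGCCAggcgcgactccaagg
Bbs1: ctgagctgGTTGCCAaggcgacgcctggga
Drc1: aacaagccGTTGCCAagggaaagcagtcac
None of these 6 genes passed the test at 24 h. Their log2 fold changes there were -0.41 for Tekt1, -0.12 for Cfap58, 0.78 for Cfap44, -0.93 for Ift88, -0.34 for Bbs1 and -0.14 for Drc1.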

How the data were processed

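The authors trimmed single-end reads with Trim Galore (1.16 per the submitters' processing notes) and counted them with Salmon 0.11.2, strand-specifically, on transcripts, piRNA precursors and repeat families (GRCm38). The files deposited hold estimated counts from Salmon, 1 value for a gene or repeat family, and were rounded to integers here. Library names carry the same prefix in both groups, so groups came from the labels. A feature was tested if 4 libraries or more (24 h), or 6 (46 days), exceeded 20 counts, using edgeR 4.0.16 (quasi-likelihood, TMM over all features, R 4.3.3), with Benjamini-Hochberg adjustment over all features tested; DESeq2 1.42.0 and limma 3.58.1 were alternatives. A standard error is the absolute log2 fold change over the square root of edgeR's F statistic, and the intervals were built from it. For Cfap54 at 46 days that interval is narrower than the p of the test implies. The code was tested on simulated data. No pair of libraries of a group agreed within sampling noise. Genes were named by the smallest p at 24 h, by the highest level per family, as near-identical pairs, and, at 46 days, all. The other genes named at 24 h follow none of these rules and were named with their values known. Among them are Ift20, Ift43, Ift88, Ift172, Bbs1, Bbs2, Bbs4, Bbs5, Cfap20, Cfap43, Cfap44, Cfap45, Cfap52, Cfap53, Cfap58, Drc1, Rsph6a, Spag7 and Tekt2. Highest level was read from CPM, since no transcript lengths were used. Of 68 genes 67 matched RefSeq. Ift122 and 7 others overlap another listed gene. The members and lists were chosen with earlier results of these data known. Serum samples were not used here.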

Additional observations from a re-analysis of the deposited data

Results flagged for a closer look

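In groups of 4 or 7 libraries, a library that stands apart from the others by Dixon's test was found 13 times in 168 gene and group pairs (7.74%, where chance gives about 5%). Of these, 4 were in TESA library ai_3 and 4 in CTRL library ai_4. The same libraries had the lowest sperm marker sums at 24 h, 4768 CPM in ai_3 and 3158 CPM in ai_4. The other libraries at 24 h had 6110 to 10770 CPM, and a link between these was not tested. In ai_3, Cfap126 was lowest at 15.8 CPM (next 21.5), Cfap53 at 0 (next 4.98) and Ift27 at 3.68 (next 6.17), and Ift43 was highest at 7.61 with the other TESA libraries at 0. In ai_4, Cfap97 was lowest at 4.04 CPM (next 7.36), Ift43 at 2.75 (next 4.26) and Rsph1 at 12.9 (next 25), and Cfap53 was highest at 8.73 (next 2.78). CTRL library ai_2 was highest for Ift122 at 140 CPM (next 82.4) and for Cfap100 at 21.8 (next 13.4), and TESA library ai_5 for Ift46 at 13.1 (next 7.53). At 46 days Bbs9 was highest in TESA library KG8-11 at 80.6 CPM (next 59.8), and Cfap61 lowest in CTRL library KG8-13 at 0.905 (next 3.03).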

How the results depend on the processing

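No flagellum gene passed an adjusted p of 0.05 at 24 h (17 alternatives), at 46 days (25) or in the difference of the effects (23). At 24 h the count under an unadjusted p of 0.05 was 0. It became 2 with DESeq2, 4 with voom, 1 with DESeq2 size factors and 0 to 3 without 1 library. With a term for library number (chosen after seeing the data) it was 3, beside 3.56% of all features. No share of all features is given here for the other fits, so their counts do not show whether these genes differ from the rest. The median log2 fold change of -0.08 became -0.22 with voom and 0.11 with library totals, and ran from -0.15 to -0.019 without 1 library. At 46 days the unadjusted count of 1 became 0 with voom, library totals, libraries 1 to 10 and without KG8-02 and KG8-12, and was 0 to 1 without 1 library. The median of 0.05 became -1.03 with library totals and ran from -0.04 to 0.08 without 1 library. The cause of these changes was not tested.

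Of the named log2 fold changes, 15 of the values at 24 h and 44 at 46 days took the other sign, none of them past the threshold. At 24 h these were Spag6 with DESeq2 (0.0037), Spag11a with voom (-0.045) and with the library number term (-0.13), and Rsph3a with library totals (0.19). Without 1 library Rsph3a ran from -0.28 to 0.056, Rsph1 from -0.075 to 0.19, Spag11a from -0.59 to 0.34, Spag6 from -0.64 to 0.41 and Spag6l from -1.09 to 0.082. At 46 days library totals gave Bbs9 -0.98, Cfap100 -1.07, Cfap54 -1.12, Cfap58 -1.04, Cfap61 -0.995, Drc7 -0.78, Rsph10b -0.72, Rsph3b -0.46, Spag16 -1.02, Spag17 -0.97 and Spag9 -1.05. With libraries 1 to 10 Bbs9 was -0.023, Cfap46 0.030, Ift122 0.0038, Spag4 0.011 and Spag5 0.17. DESeq2 gave Ift172 0.012 and Spag5 0.011, voom gave Spag5 0.20, and without KG8-02 and KG8-12 Ift122 was 0.024 and Spag5 0.060. Without 1 library Ift172 ran from -0.13 to 0.072, Cfap100 from -0.074 to 0.077, Cfap58 from -0.055 to 0.25, Cfap54 from -0.020 to 0.11, Spag17 from -0.024 to 0.16, Bbs9 from -0.024 to 0.16, Spag5 from -0.12 to 0.049 and Cfap61 from -0.023 to 0.30. The 12 genes with the smallest p at 24 h kept their sign throughout. They were chosen by p in these same libraries, so refits of the same counts were likely to keep it, and this adds no support. Among values at 24 h of unchanged sign, library totals gave Tekt1 -0.060, Spag9 -0.075, Rsph3b -0.11, Spag4 -0.12, Drc7 -0.13 and Ift122 -0.23. They also gave Rsph1 0.29, Cfap65 0.60 and Rsph9 1.14. Rsph10b has no RefSeq entry and no value among RefSeq-named genes. No paired analysis was possible because the groups share no library number and the labels give no pairs. At 401 and 963 counts of these genes, KG8-02 and KG8-12 limit what 46 days can show.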
